A study of Mus musculus with 20 samples.

Results

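The data described here measured what a monoclonal antibody against acyl coenzyme A binding protein did to the mouse liver transcriptome in animals that received no corticosterone. Members were chosen by their treatment labels alone, DBI_Veh against IgG_Veh, and comprised 10 of the 20 livers sequenced, 5 in each group. Because 1 of the 5 antibody livers, DBI_Veh replicate 5, had a different RNA composition, calls are given with and without it.

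All mice were wild-type C57BL/6 females aged 8 weeks, held on a light and dark cycle with free access to food. IgG_Veh mice received an IgG2a isotype control and DBI_Veh mice received anti-ACBP at 5 mg/kg, injected intraperitoneally over 5 weeks. The methods give 2 injections a week where the labels call the schedule biweekly. Both groups drank the vehicle of the corticosterone experiment, 0.66% ethanol in water. The other 10 livers, IgG_CORT and DBI_CORT, came from mice given the same antibodies together with corticosterone (CORT) in the drinking water. They enter the fit behind the gene calls, in which the 4 groups share the filter, the scaling and the estimate of spread. Their own levels are given only where the antibody effect is set beside its size under CORT. Livers were snap frozen and sequenced as bulk tissue, so that fewer cells of a type and less RNA per cell cannot be told apart. The hour at which the livers were taken is not given in the sources used here.

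ACBP, also called diazepam binding inhibitor and encoded by Dbi, is a small cytosolic protein that binds acyl-CoA esters and delivers them to lipid-metabolising enzymes. It also leaves cells without a signal peptide and, outside the cell, modulates GABA-A receptors that carry a gamma subunit. The liver is rich in the protein, and extracellular ACBP is known to favour feeding and fat storage. The antibody neutralises the extracellular protein and does not act on the gene, so the level of Dbi mRNA is no test of whether the antibody worked.

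Read counts on genes numbered between 14934926 and 20299999 per liver, with no difference between the groups that passed a test (two-sided exact permutation test of 5 against 5, p = 0.849, where 0.00794 is the smallest possible). Neither the share of read pairs on no annotated feature (43.4% ± 0.659 and 43.5% ± 1.03, exact permutation p = 0.754) nor the share of counts from mitochondrially encoded genes (5.94% ± 1.74 and 6.40% ± 1.76, exact permutation p = 0.698) passed that test. Hepatocyte transcripts were abundant in every library. The 10 hepatocyte markers, each read in at least 1 liver, summed to 84740 to 136200 CPM (TMM-scaled counts per library, brought to a common total) in IgG_Veh livers and to 47120 to 109700 CPM in DBI_Veh livers. The lowest sum, 47120 CPM, belonged to DBI_Veh replicate 5. In that liver the 20 most abundant genes took 14.05% of counts against 21.1% to 24.6% in the other 9. Its mean correlation of log2 CPM with the remaining vehicle livers was 0.846 against 0.876 to 0.915 for the others. A total of 1317 of the genes tested lay more than 2-fold outside the range of the other 9 livers there, 220 above and 1097 below. IgG_Veh replicate 4 came next, with 407 such genes and a hepatocyte marker sum of 84740 CPM. The part that these compositions played in single genes was not tested beyond leaving the livers out.

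With the antibody alone, the clock genes Ciart, Dbp and Tef, the acute phase genes Saa1, Saa2, Saa3 and Lcn2 and the metallothioneins Mt1 and Mt2 rose. The clock activator Arntl, the D-box repressor Nfil3, the fatty acid sensor Ppard, the mitochondrial chaperone Clpx and the decarboxylase Ddc fell. All of these except Dbp were also called without DBI_Veh replicate 5. Across the 16071 genes with enough counts for a test, 209 (1.3%) were called in edgeR's quasi-likelihood test, which here means an adjusted p no higher than 0.05 with a change of at least 2-fold (1 on the log2 scale) in either direction. Of these, 110 (0.684%) were higher with anti-ACBP and 99 (0.616%) were lower. Adjusted p alone was passed by 826 genes (5.14%), 447 (2.78%) of them higher and 379 (2.36%) lower, and unadjusted p with the same limit on the fold change by 537 (3.34%). Unadjusted p of 0.05 or less alone, used below only beside lists without a call, was passed by 20.6% of genes. In 138 of the 209 called genes the CPM values of the 5 antibody and 5 isotype livers did not overlap, against 1146 (7.13%) of all genes tested, 3.5% separate on the higher and 3.63% on the lower side. Protein coding genes made up 178 of the 209 called and 13367 of the 16071 tested. Of the called genes, 33 had a mean of 100 CPM or more and 47 a mean under 10 CPM. Every one of the 209 kept its direction when DBI_Veh replicate 5 was left out. As the calls were made on these same livers, neither this nor the lack of overlap is independent support for them.

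Without that liver, 113 of 16480 genes (0.686%) were called, 66 (0.4%) higher and 47 (0.285%) lower, and 309 (1.88%) passed adjusted p alone, 174 (1.06%) higher and 135 (0.819%) lower. The lists shared 99 genes, which was 61 of the 110 rises and 38 of the 99 falls. A further 110 genes were called only with replicate 5 and 14 only without it. Other livers moved the count as well, to 90, 123, 343 and 87 without IgG_Veh replicate 1, 2, 4 or 5 and to 92 without DBI_Veh replicate 1. Without both DBI_Veh replicate 5 and IgG_Veh replicate 4 it was 177, of which 122 were among the 209. Of the 50 called genes named below, 30 were still called without DBI_Veh replicate 5, 21 without IgG_Veh replicate 5, 23 without IgG_Veh replicate 1 and 24 without DBI_Veh replicate 1, and none changed direction. Many of these genes were named by their call with or without DBI_Veh replicate 5, so the 30 is partly set by that choice. The plot of fold changes with and without DBI_Veh replicate 5 shows where these genes lie.

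**Figure D1:**
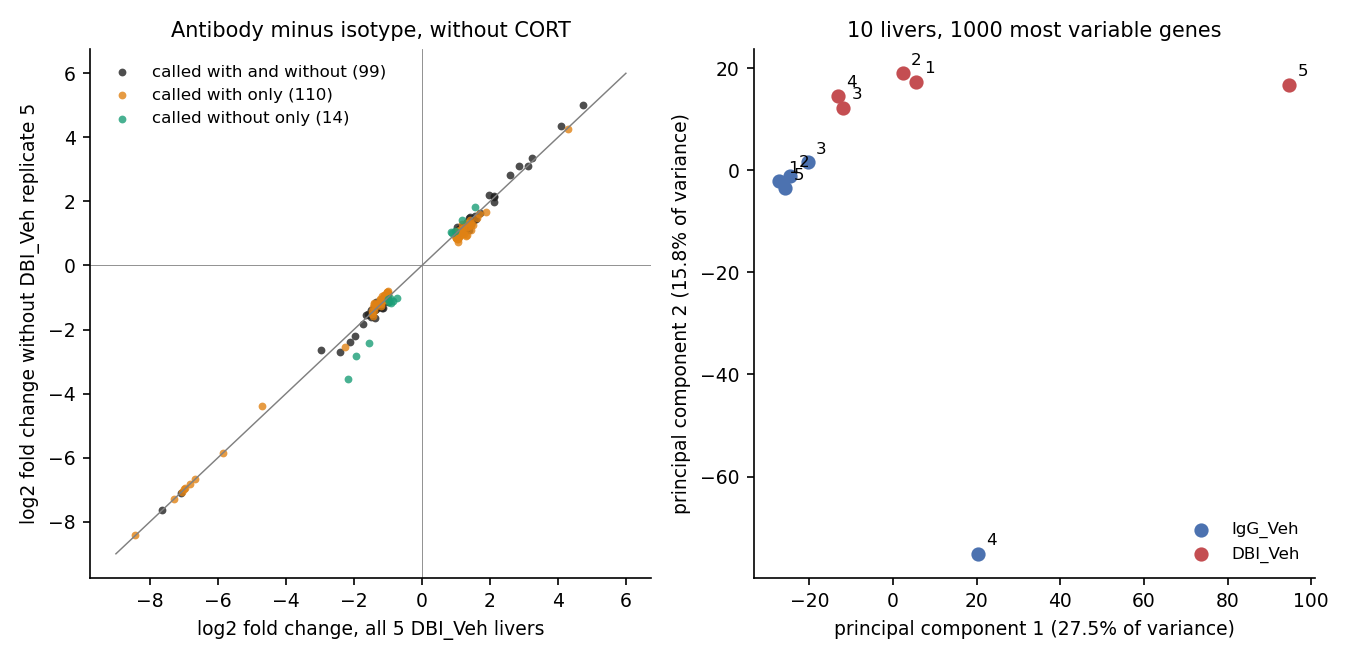
Left, log2 fold change of anti-ACBP minus isotype for each called gene with all 5 DBI_Veh livers (x axis) and without DBI_Veh replicate 5 (y axis), coloured by the fit in which it was called; the line marks equal values. Right, the first 2 principal components of log2 CPM over the 1000 most variable genes, with each liver numbered; DBI_Veh replicate 5 lies at 94.8 on the first component and IgG_Veh replicate 4 at -75.2 on the second.

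Direction of change moved with the base composition of the transcripts. When the 15804 genes with a GC content (98.3% of those tested) were split into quintiles, the median log2 fold change climbed from -0.24 in the lowest quintile through -0.13, -0.04 and 0.07 to 0.23 in the highest. Without DBI_Veh replicate 5 the medians ran from -0.23 to 0.21. Called rises numbered 4, 8, 16, 26 and 54 from the lowest to the highest quintile, and called falls 36, 21, 18, 16 and 7. In each liver, the median deviation of the highest quintile minus that of the lowest lay between -0.418 and -0.0761 in the IgG_Veh group and between 0.136 and 0.329 in the DBI_Veh group. The groups did not overlap (two-sided exact permutation test, n = 5 and 5, p = 0.00794). With an offset for GC content and transcript length, an alternative added after seeing the data, 122 genes were called, 86 of them among the 209, and without DBI_Veh replicate 5 the same offset left 41. For the called genes described below, calls lost under the offset are stated beside them. Genes that passed the adjusted p alone are described from the fit without the offset. With it Ugt2a3, Elovl5, Akr1d1, Ghr, Hspa5, Hsp90b1, Socs3, Kynu and Dcn no longer passed (edgeR adjusted p from 0.0638 to 0.330). Me1, Agpat2, Pnpla2, Cyp2j5, Pdia4, Manf, Col3a1, F7 and Tns2 still did.

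**Figure D2:**
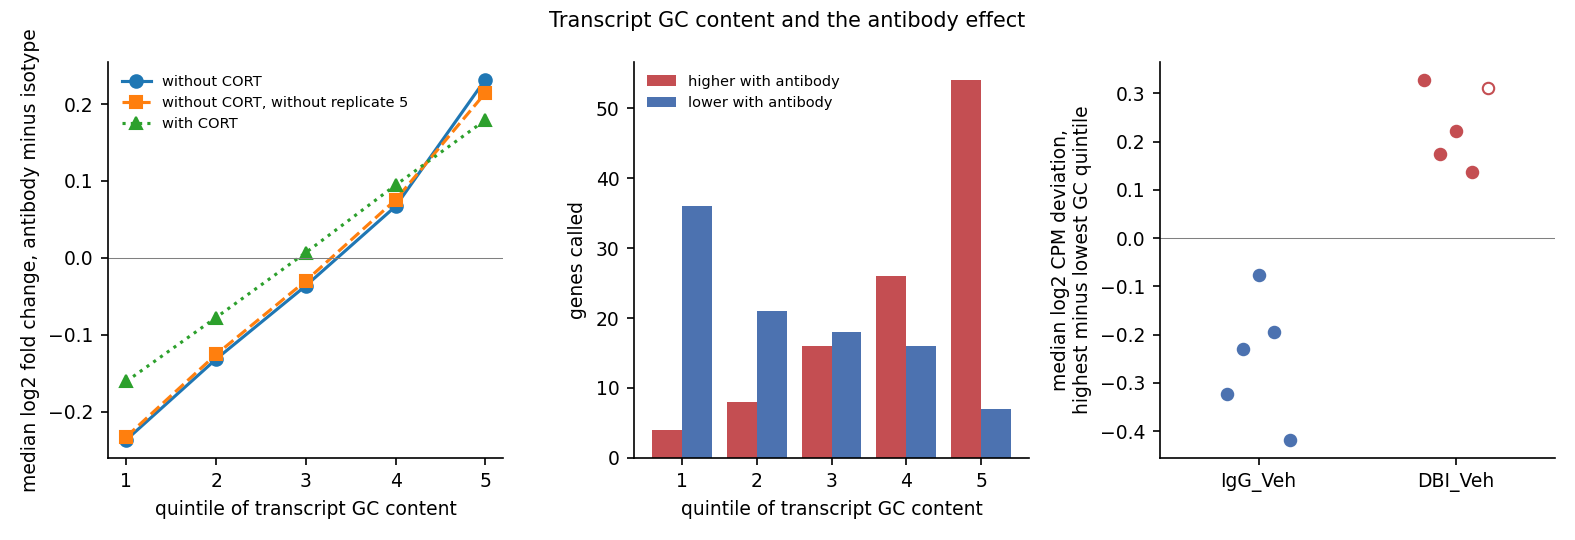
Left, median log2 fold change of anti-ACBP minus isotype by quintile of transcript GC content (x axis, 1 lowest), without CORT, without DBI_Veh replicate 5 and with CORT; middle, number of called genes per quintile in each direction; right, for each liver, the median log2 CPM deviation of the highest quintile minus that of the lowest, with DBI_Veh replicate 5 as an open circle. All 5 antibody livers lie above 0 and all 5 isotype livers below it.

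Genes of the circadian clock differed between the groups in both directions. In liver, BMAL1 (encoded by Arntl) pairs with CLOCK or NPAS2 and switches on genes through E-boxes, among them its own repressors of the PER, CRY and CIART kind, the REV-ERB receptors Nr1d1 and Nr1d2, and the output factors DBP, TEF and HLF, which act on D-boxes. REV-ERB and ROR proteins compete at ROR elements in genes such as Arntl and Nfil3, and NFIL3 represses D-box genes. Of the 19 clock genes tested, 3 were called higher (Ciart, Dbp and Tef) and 2 lower (Arntl and Nfil3), a share of 26.3% against 1.3% of all genes tested. Their median log2 fold change was 0.70 against -0.02 for all genes, with 13 of 19 higher, and Ciart, Tef, Arntl and Nfil3 were also called without DBI_Veh replicate 5. In 9 of the 19 the livers of the 2 groups did not overlap, against 7.13% of all genes tested. This list and those below were written with earlier results of these data known. Their shares beside that of all genes are therefore description and no independent support. DESeq2's Wald test called 8 genes of the clock list and limma voom 7. Without DBI_Veh replicate 5 these tools also called more of all genes, 192 and 270 of 16480 against 113 in edgeR. The share of 1.3% here and below is edgeR's and does not apply to list counts by the other tools.

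Promoter sequences are shown here for Ciart, Tef, Per3, Arntl and Nfil3, which hold a clock motif in the window, to set the motif letters beside the direction of each gene. Windows of 300 bases, from 250 before to 50 after the RefSeq start site on GRCm38.p6, were searched on both strands for the E-box CACGTG (held by 7.15% of 32851 windows), the D-box TTANGTAA (2.32%) and the ROR element TAGGTCA (2.61%). Of 21 clock gene windows, 6 held the E-box, 1 the D-box and 2 the ROR element. The E-box windows belonged to Ciart, Tef (2 windows) and 3 genes not called and not shown, Per1, Cry1 and Bhlhe41, with log2 fold changes of 1.85, -1.53 and 1.83. Capitals mark the matches in the sequences that follow, read 5′ to 3′ on the strand of the gene. Ciart (chr3:95882179-95882478, minus strand) holds 3 E-boxes, beginning 116, 58 and 44 bases before the start, and Tef (chr15:81802423-81802722, plus strand) holds 1, at 127 bases before it. Per3 (chr4:151044616-151044915, minus strand) holds 2 D-boxes, 205 and 158 bases before the start. Arntl (chr7:113207261-113207560, plus strand) and Nfil3 (chr13:52980990-52981289, minus strand), both lower with the antibody, each hold 1 ROR element, 30 bases after and 12 bases before the start, in Nfil3 on the opposite strand. A match in these windows is a description of letters and not a mapped binding site.
Ciart: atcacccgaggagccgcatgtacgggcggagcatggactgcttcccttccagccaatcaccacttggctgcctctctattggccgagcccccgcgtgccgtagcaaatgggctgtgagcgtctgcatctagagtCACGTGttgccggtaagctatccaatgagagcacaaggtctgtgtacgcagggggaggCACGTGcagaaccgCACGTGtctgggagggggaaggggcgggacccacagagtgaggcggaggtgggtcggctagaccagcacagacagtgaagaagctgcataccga
Tef: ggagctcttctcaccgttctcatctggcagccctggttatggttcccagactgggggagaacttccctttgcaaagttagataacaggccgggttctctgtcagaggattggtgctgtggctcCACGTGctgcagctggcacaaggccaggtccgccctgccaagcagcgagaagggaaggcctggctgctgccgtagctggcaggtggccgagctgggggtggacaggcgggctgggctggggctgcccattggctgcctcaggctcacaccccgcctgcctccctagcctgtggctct
Per3: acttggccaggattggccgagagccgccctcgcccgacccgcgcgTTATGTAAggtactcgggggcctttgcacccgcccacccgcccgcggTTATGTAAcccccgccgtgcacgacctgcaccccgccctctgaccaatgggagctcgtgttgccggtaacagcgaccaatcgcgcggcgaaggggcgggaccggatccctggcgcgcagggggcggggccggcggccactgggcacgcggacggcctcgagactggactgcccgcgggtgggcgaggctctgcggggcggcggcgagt
Arntl: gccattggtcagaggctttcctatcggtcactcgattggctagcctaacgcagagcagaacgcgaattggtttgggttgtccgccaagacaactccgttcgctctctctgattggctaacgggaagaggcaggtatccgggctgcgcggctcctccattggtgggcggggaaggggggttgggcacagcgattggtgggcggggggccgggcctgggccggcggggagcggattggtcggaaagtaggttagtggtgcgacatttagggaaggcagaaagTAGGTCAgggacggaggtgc
Nfil3: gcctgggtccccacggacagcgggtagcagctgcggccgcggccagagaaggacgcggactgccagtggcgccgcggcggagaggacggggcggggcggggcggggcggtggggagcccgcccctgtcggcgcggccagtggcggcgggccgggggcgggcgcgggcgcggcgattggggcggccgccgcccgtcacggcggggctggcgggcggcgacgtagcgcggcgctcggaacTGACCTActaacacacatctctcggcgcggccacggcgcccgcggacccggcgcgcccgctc

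Among the activators, Arntl stood at 35.3, 31.5, 31.1, 40.6 and 28.2 CPM in the IgG_Veh livers and at 1.90, 6.91, 4.46, 12.000 and 13.2 CPM in the DBI_Veh livers. Every antibody liver was below every isotype liver, and the mean fell from 33.3 ± 4.80 to 7.69 ± 4.83 CPM (SD, n = 5; log2 fold change -2.11 ± 0.43 SE, edgeR adjusted p = 0.0108). Without DBI_Veh replicate 5 the log2 fold change was -2.40 (edgeR adjusted p = 0.0143). Npas2, the partner that can replace CLOCK, had the same pattern without passing the test, at 17.4, 12.5, 12.03, 19.9 and 7.91 CPM against 1.00, 5.41, 1.15, 4.90 and 3.38 CPM (log2 fold change -2.13, edgeR adjusted p = 0.0527). Rora, an activator at ROR elements, ranged over 22.9 to 32.1 CPM with antibody against 33.2 to 47.9 CPM with isotype, without overlap, and did not pass (log2 fold change -0.60, edgeR adjusted p = 0.0570). Clock itself averaged 27.3 ± 3.50 CPM with isotype and 17.6 ± 5.32 CPM with antibody (log2 fold change -0.63, edgeR adjusted p = 0.0854).

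Ciart, a repressor of the CLOCK and BMAL1 pair (chr3:95785815-95789991, GRCm39), was read at 1.57, 1.59, 2.94, 2.19 and 0.899 CPM in isotype livers and at 23.3, 23.4, 22.2, 6.72 and 11.5 CPM in antibody livers. The lowest antibody liver was above the highest isotype liver, and the ratio of means was 9.48 (log2 fold change 3.24 ± 0.58 SE, edgeR adjusted p = 0.00368; 3.35 and edgeR adjusted p = 0.00749 without DBI_Veh replicate 5). Of the period genes, Per3 was higher in all antibody livers, at 40.9, 24.3, 109, 30.6 and 107 CPM against 3.43, 7.95, 11.6, 17.3 and 9.71 CPM, and was not called (log2 fold change 2.64, edgeR adjusted p = 0.0570). Per2 (log2 fold change 1.41, edgeR adjusted p = 0.0625) and Per1 (log2 fold change 1.85, edgeR adjusted p = 0.180) overlapped between groups, Per1 through IgG_Veh replicate 3 at 80.2 CPM. Cry2 ranged over 29.1 to 44.5 CPM with antibody against 22.3 to 31.7 CPM (log2 fold change 0.52, edgeR adjusted p = 0.0819). Cry1 ranged over 0 to 6.11 CPM against 5.02 to 15.2 CPM (log2 fold change -1.53, edgeR adjusted p = 0.199). The REV-ERB genes were not called either: Nr1d1 averaged 258 ± 90.5 CPM against 171 ± 69.5 CPM (log2 fold change 0.60, edgeR adjusted p = 0.640) and Nr1d2 108 ± 18.8 CPM against 64.1 ± 30.9 CPM (log2 fold change 0.75, edgeR adjusted p = 0.263).

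Of the output factors, Dbp had the largest fold change of the list. It read 5.42, 17.2, 21.8, 23.5 and 11.2 CPM with isotype and 214, 236, 611, 151 and 361 CPM with antibody, a ratio of means of 19.9 (log2 fold change 4.31 ± 1.06 SE, edgeR adjusted p = 0.0287). All antibody livers were far above the isotype range and differed widely among themselves. Without DBI_Veh replicate 5 the adjusted p was 0.0620 at a log2 fold change of 4.25. The call was also lost with the GC offset (edgeR adjusted p = 0.0512). Tef read 48.5, 104, 118, 132 and 85.8 CPM with isotype and 404, 385, 475, 293 and 547 CPM with antibody (log2 fold change 2.11 ± 0.41 SE, edgeR adjusted p = 0.00859; 1.99 and edgeR adjusted p = 0.0316 without replicate 5). Nfil3, the D-box repressor, read 87.99, 67.7, 62.3, 71.9 and 53.5 CPM with isotype and 22.9, 28.5, 21.9, 36.95 and 45.6 CPM with antibody. Here too the groups were separate, with DBI_Veh replicate 5 the nearest to the isotype range (log2 fold change -1.14 ± 0.24 SE, edgeR adjusted p = 0.00788; -1.32 and edgeR adjusted p = 0.00681 without it). Hlf, the remaining factor of the DBP and TEF family, averaged 20.6 ± 4.10 and 26.4 ± 6.73 CPM (log2 fold change 0.36, edgeR adjusted p = 0.332). Bhlhe40, a further E-box repressor, averaged 44.4 ± 14.5 and 91.3 ± 42.05 CPM (log2 fold change 1.04, edgeR adjusted p = 0.153), and Bhlhe41 was read at under 2 CPM throughout.

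**Figure D3:**
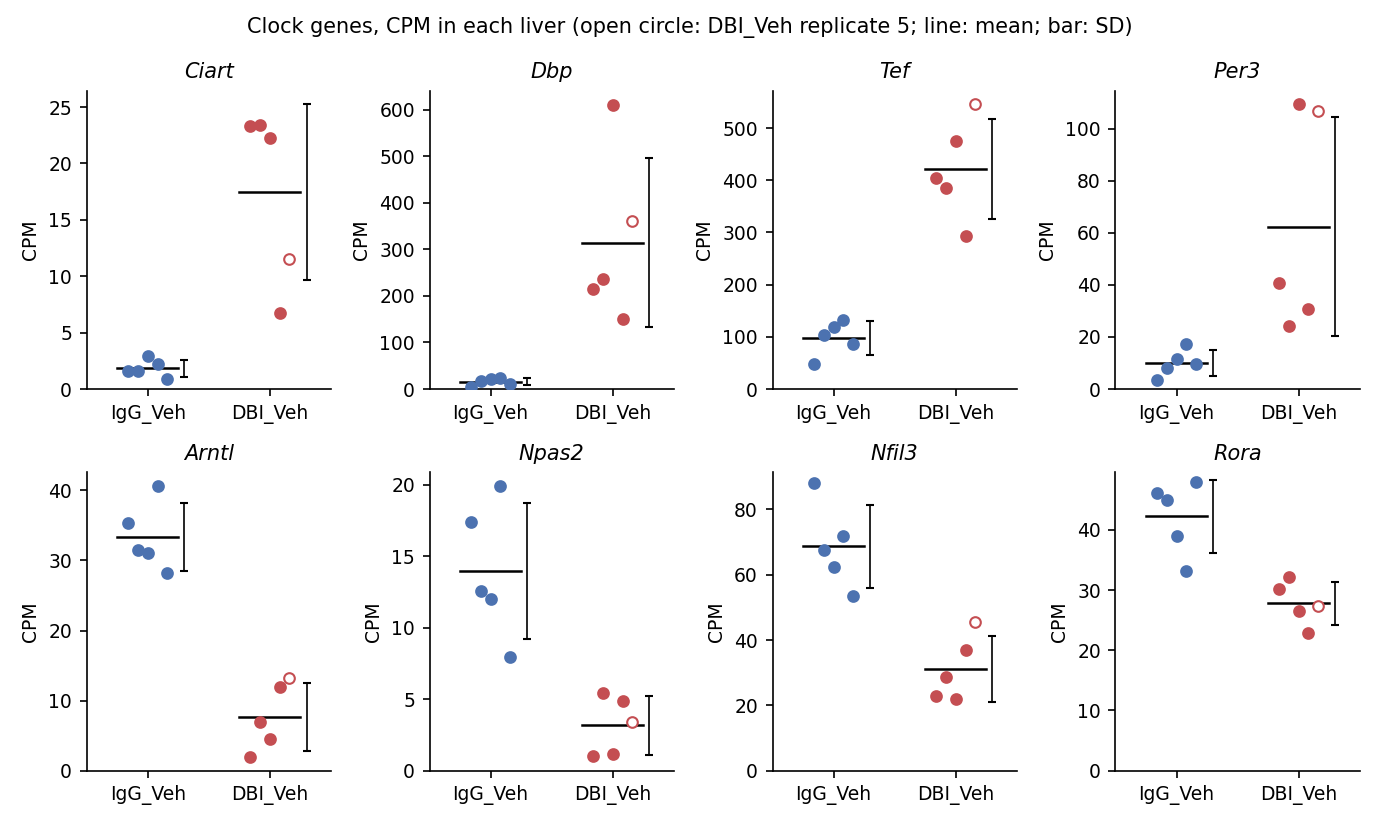
CPM (y axis, linear, from 0) of 8 clock genes in each IgG_Veh and DBI_Veh liver; points are livers, the open circle is DBI_Veh replicate 5, lines are means and bars SD, n = 5 per group. In all 8 genes shown no antibody liver lies within the isotype range; Ciart, Dbp, Tef and Per3 are above it and Arntl, Npas2, Nfil3 and Rora below it.

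Usp2, a deubiquitinase whose mRNA cycles with the clock, is named after its values were seen. It averaged 3.34 ± 2.09 CPM with isotype and 20.2 ± 15.01 CPM with antibody, with replicate 4 of the antibody group inside the isotype range (log2 fold change 2.60 ± 0.62 SE, edgeR adjusted p = 0.0242), and was also called without DBI_Veh replicate 5 (edgeR adjusted p = 0.0289).

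Hepatocytes switch on acute phase genes in response to inflammatory cytokines. Of the 28 tested, 5 were called higher (Saa1, Saa2, Saa3, Lcn2 and Cebpb) and none lower, a share of 17.9% against 1.3%. All but Cebpb were also called without DBI_Veh replicate 5. Their median log2 fold change was 0.11, with 17 higher and 11 lower. DESeq2 called 6 and limma voom 5.

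Saa1 and Saa2 encode the serum amyloid A proteins of the blood and lie side by side (chr7:46389916-46392547 and chr7:46401214-46403737, GRCm39). Saa1 read 37.5, 36.2, 37.4, 23.6 and 56.5 CPM in isotype livers and 1007, 40.3, 662, 1464 and 115 CPM in antibody livers. Saa2 read 22.2, 44.6, 25.6, 19.8 and 53.4 CPM in isotype livers and 1338, 31.2, 788, 2108 and 137 CPM in antibody livers. Antibody replicates 1, 3 and 4 carried the rise in both genes, replicate 5 lay above the isotype range at lower values and replicate 2 lay within it. Both were called, Saa1 (log2 fold change 4.10 ± 0.73 SE, edgeR adjusted p = 0.00750) and Saa2 (log2 fold change 4.73 ± 0.89 SE, edgeR adjusted p = 0.00891). Leaving out DBI_Veh replicate 5 gave 4.37 (edgeR adjusted p = 0.00682) and 5.001 (edgeR adjusted p = 0.0114). Of the 100-base words of these transcripts, 8.59% and 10.7% occur in the other gene. A small part of the reads could thus be split between the genes or counted in both.

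Saa3, expressed more outside hepatocytes, was also high in antibody replicates 1, 3 and 4, at 8.79, 8.87, 4.67, 3.51 and 14.4 CPM against 44.4, 9.85, 38.01, 57.5 and 9.51 CPM (log2 fold change 1.98 ± 0.48 SE, edgeR adjusted p = 0.0258). Lcn2, the siderophore-binding protein lipocalin 2, read 22.8, 18.2, 16.3, 14.7 and 19.9 CPM with isotype and 204, 24.8, 118, 292 and 33.1 CPM with antibody. Its groups did not overlap, although replicates 2 and 5 of the antibody group lay just above the isotype range (log2 fold change 2.87 ± 0.65 SE, edgeR adjusted p = 0.0228; 3.11 and edgeR adjusted p = 0.0230 without replicate 5). Orm2, an acid glycoprotein, was likewise highest in antibody replicates 4, 1 and 3, at 278, 79.5, 162, 333 and 37.1 CPM against 89.8, 49.1, 31.01, 89.1 and 42.9 CPM, and was called only without replicate 5 (log2 fold change 1.81, edgeR adjusted p = 0.0224; 1.56 and adjusted p = 0.0587 with it). The abundant Hp, encoding haptoglobin, read 7381, 3575, 5936, 6765 and 2508 CPM against 3583, 3406, 3034, 2870 and 3420 CPM and was not called (log2 fold change 0.68, edgeR adjusted p = 0.123).

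Cebpb, a transcription factor of the acute phase response, averaged 122 ± 47.3 CPM with isotype and 251 ± 125 CPM with antibody, with overlap (log2 fold change 1.04 ± 0.28 SE, edgeR adjusted p = 0.0324). It was lost without DBI_Veh replicate 5 (edgeR adjusted p = 0.0672) and with the GC offset (adjusted p = 0.186). Socs3, the feedback inhibitor of cytokine signalling, passed the adjusted p at under 2-fold (log2 fold change 0.88 ± 0.23 SE, edgeR adjusted p = 0.0255). Cebpb and Socs3 were highest in antibody replicates 1 and 2, of which replicate 1 was high and replicate 2 low in Saa1.

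Leukocyte markers were read beside these genes. Summed over its list, the neutrophil level was 12.3 to 24.8 CPM with isotype and 9.58 to 21.4 CPM with antibody, with 1 of 10 markers at 0 in all 10 livers. Kupffer cell and macrophage markers summed to 550.2 to 1138 CPM with isotype and 649 to 1084 CPM with antibody. None of the 113 genes of the immune, interferon and MHC lists was called in edgeR, 12 had an unadjusted p of 0.05 or less, and DESeq2 and limma voom each called 1. The marker sums of the groups overlapped.

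Metallothioneins bind zinc and copper and are induced by metals, glucocorticoids and inflammation. Mt2 read 108, 287, 423, 201 and 247 CPM in isotype livers and 1347, 999, 1023, 1105 and 1014 CPM in antibody livers, so that the antibody group was above the isotype group throughout, within 999 to 1347 CPM (log2 fold change 2.12 ± 0.39 SE, edgeR adjusted p = 0.00721; 2.14 and edgeR adjusted p = 0.0224 without replicate 5). Its neighbour Mt1 read 347, 1044, 1150, 546 and 937 CPM with isotype and 2603, 1862, 2158, 2418 and 1435 CPM with antibody, again without overlap (log2 fold change 1.38 ± 0.33 SE, edgeR adjusted p = 0.0202; 1.48 and adjusted p = 0.0392 without replicate 5). The antibody livers low in Saa1, replicates 2 and 5, held Mt2 at the level of the rest. Of the exon bases of Mt2, 82.4% overlap a gene on the opposite strand, and since the strand setting of the counting was not stated, reads of the pair cannot be told apart.

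Their promoter windows are given because both genes rose and lie next to each other on chromosome 8. The letters TGCGCNC, a form of the metal response element, were searched on both strands and are held by 15.4% of 32851 windows. Other forms of the element were not searched and stand unmarked in the sequences. Mt2 (chr8:94172368-94172667, GRCm38.p6, plus strand) holds 2 matches, and Mt1 (chr8:94178839-94179138, plus strand) holds 1, in capitals. As for the clock motifs, the match describes letters only.
Mt2: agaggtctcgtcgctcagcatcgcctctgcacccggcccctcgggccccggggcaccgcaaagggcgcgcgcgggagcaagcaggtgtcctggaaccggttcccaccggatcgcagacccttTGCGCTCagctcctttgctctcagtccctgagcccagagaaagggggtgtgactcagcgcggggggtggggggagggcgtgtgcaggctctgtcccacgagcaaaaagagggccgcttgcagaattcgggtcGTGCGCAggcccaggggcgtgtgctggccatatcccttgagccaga
Mt1: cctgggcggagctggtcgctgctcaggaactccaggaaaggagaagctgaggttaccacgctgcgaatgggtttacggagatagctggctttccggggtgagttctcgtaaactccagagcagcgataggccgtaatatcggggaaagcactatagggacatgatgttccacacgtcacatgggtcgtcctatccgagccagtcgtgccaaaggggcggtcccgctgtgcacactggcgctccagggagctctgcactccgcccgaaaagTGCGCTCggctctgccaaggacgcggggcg

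Mt1, Mt2 and Lcn2 were also the 3 called members of the 18 genes listed as glucocorticoid responsive, 16.7% against 1.3% of all genes, and no other member passed even the adjusted p. That list had a median log2 fold change of 0.22, with 13 higher and 5 lower. Its summed level was 4461 to 7671 CPM with isotype and 6814 to 12140 CPM with antibody, with overlap.

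**Figure D4:**
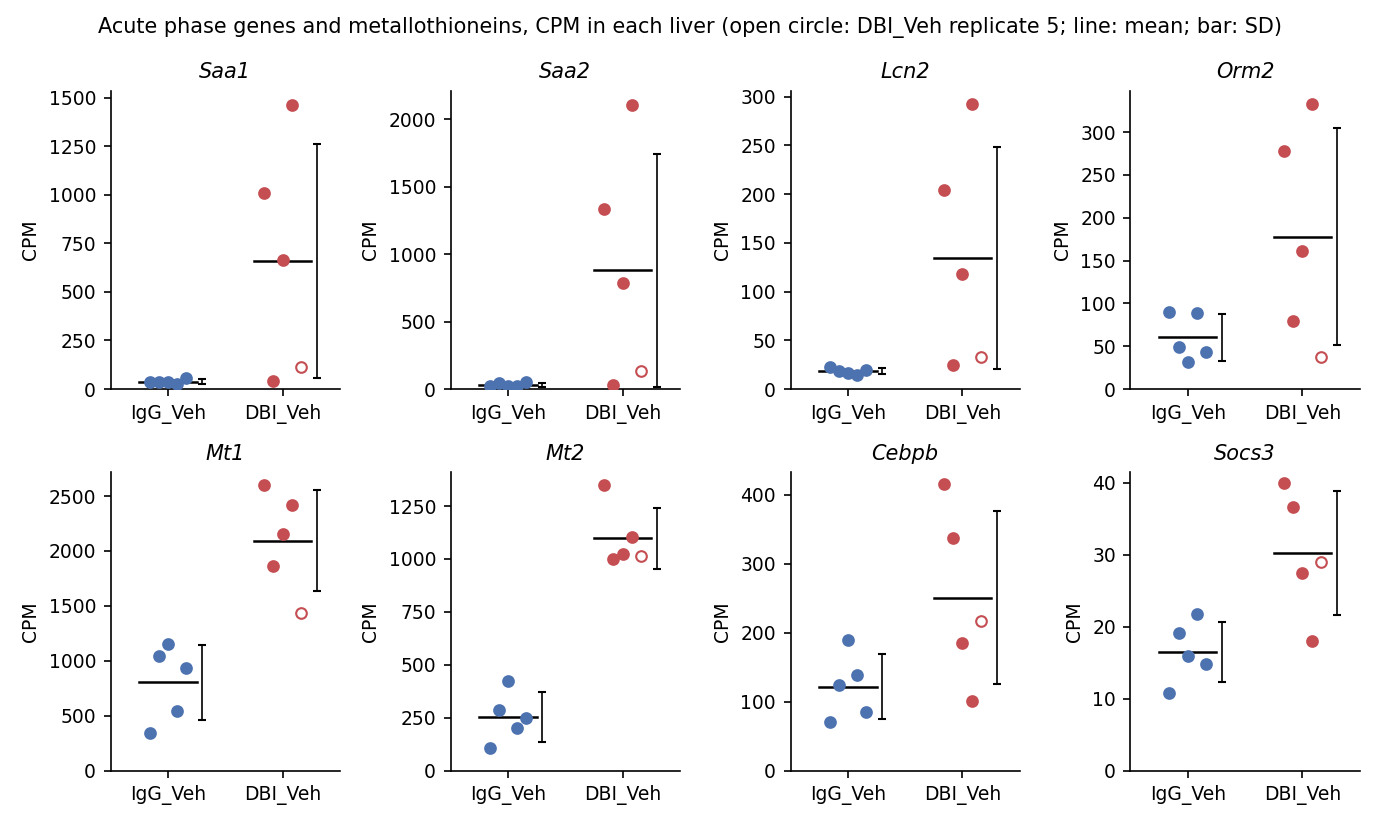
CPM (y axis, linear, from 0) of 6 acute phase genes, Mt1 and Mt2 in each liver; points are livers, the open circle is DBI_Veh replicate 5, lines are means and bars SD, n = 5 per group. Saa1, Saa2, Lcn2 and Orm2 are high in antibody replicates 1, 3 and 4, while Mt1 and Mt2 are above the isotype range in all 5 antibody livers.

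Among genes called with and without DBI_Veh replicate 5 whose livers did not overlap, the 10 largest rises were Ciart, Azin2, Lcn2, Wnk4, Mt2, Tef, Sipa1l2, Vwce, Sphk2 and Slc6a9. Azin2, an antizyme inhibitor that regulates polyamine synthesis, went from 0.422, 0.734, 1.98, 0.877 and 0.479 CPM to 5.47, 4.18, 13.9, 8.20 and 8.16 CPM, a ratio of means of 8.89 (log2 fold change 3.13 ± 0.71 SE, edgeR adjusted p = 0.0138). Wnk4, a kinase known for its control of renal salt transport, went from 3.50 ± 1.62 to 15.2 ± 8.88 CPM (log2 fold change 2.12 ± 0.40 SE, edgeR adjusted p = 0.00515), with DBI_Veh replicate 1 far above the rest at 30.8 CPM. Vwce, a secreted protein with von Willebrand factor C domains, read 50.4 to 79.1 CPM with isotype and 133 to 227 CPM with antibody (log2 fold change 1.52 ± 0.24 SE, edgeR adjusted p = 0.00215). Sipa1l2, related to Rap GTPase activators, rose from 3.07 ± 0.898 to 10.1 ± 5.16 CPM (log2 fold change 1.72, edgeR adjusted p = 0.0168), and was lost with the GC offset (edgeR adjusted p = 0.0641). Slc6a9, the glycine transporter GlyT1, rose from 20.97 ± 2.85 to 57.3 ± 21.2 CPM (log2 fold change 1.45 ± 0.23 SE, edgeR adjusted p = 0.00215).

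Sphk2, a sphingosine kinase, rose from 101 ± 29.02 to 286 ± 116 CPM, a ratio of means of 2.83 (edgeR adjusted p = 0.00788). It runs tail to tail into Dbp (chr7:45358891-45367426 and chr7:45354512-45359627, GRCm39), which covers 38.1% of its exon bases on the opposite strand. Among the antibody livers the order of Sphk2, 215, 238, 478, 189.8 and 308 CPM, was that of Dbp, with replicate 3 highest and replicate 4 lowest, and without strand the reads of the pair cannot be told apart. The same holds for Slc6a9, where 33.8% of exon bases overlap Ccdc24. Larger opposite-strand overlaps were found for Dnaja1 (83.4%), Nr1d1 (52.8%), Acbd4 (49.5%), Hspa5 (44.2%), Id2 (36.2%) and Me1 (35.5%), besides Mt2 and Tubb2a. The levels given for these genes carry the same limit. For Manf, 32.6% of exon bases overlap a gene on the same strand. As 28.9% of the sequence words of Manf also occur in Rbm15b, its own level is uncertain.

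The 10 largest falls by the same rule were Pls1, Gfod1, Arntl, Ppard, Rad1, Clpx, Tubb2a, Snx7, Ddc and Fam63b. Ppard, the nuclear receptor PPAR delta, which senses fatty acids, read 61.01, 33.8, 24.4, 73.2 and 29.6 CPM with isotype and 13.4, 14.8, 10.3, 11.8 and 16.3 CPM with antibody. Antibody livers were tightly grouped and all below the isotype range (log2 fold change -1.73 ± 0.29 SE, edgeR adjusted p = 0.00238; -1.82 and edgeR adjusted p = 0.00681 without replicate 5). Clpx, the unfoldase of the mitochondrial ClpXP protease, read 275, 193, 199, 204 and 196 CPM with isotype and 64.3, 76.5, 52.2, 109.6 and 56.3 CPM with antibody (log2 fold change -1.57 ± 0.24 SE, edgeR adjusted p = 0.00215). Ddc, which decarboxylates L-DOPA and 5-hydroxytryptophan, read 59.1 to 91.9 CPM with isotype and 18.9 to 47.9 CPM with antibody (log2 fold change -1.42 ± 0.21 SE, edgeR adjusted p = 0.00215). These 3 genes and Arntl kept their call in each of the 25 alternatives run for named genes. Among these, the unadjusted p and the lack of a fold limit only relax the call, so every called gene passes them.

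Fam63b, a deubiquitinase also named Mindy2, fell from 21.1 ± 3.32 to 8.05 ± 3.82 CPM (log2 fold change -1.39, edgeR adjusted p = 0.0146). Tubb2a, a beta tubulin, fell from 121 ± 43.3 to 41.8 ± 6.10 CPM (log2 fold change -1.53, edgeR adjusted p = 0.00859), but 89.2% of its exon bases overlap Bphl on the opposite strand and 16.8% of its 100-base words occur in other genes, so its own level is uncertain. Pls1, an actin-bundling plastin, Gfod1, Rad1, a subunit of the DNA damage checkpoint clamp, and Snx7, a sorting nexin, were read at a few CPM. Their ranges with antibody were 0 to 0.716, 0 to 1.27, 0.936 to 2.71 and 1.34 to 4.08 CPM, against 1.53 to 5.13, 2.49 to 4.88, 4.21 to 7.10 and 5.89 to 11.3 CPM with isotype. Pls1, Rad1 and Snx7 lost their call with the GC offset (edgeR adjusted p = 0.0588, 0.0583 and 0.0842).

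Genes called only with DBI_Veh replicate 5 included, besides Dbp, the rises of Sult5a1, a sulfotransferase, Cish, a STAT5-induced inhibitor of cytokine signalling, Alpk1, a kinase that senses bacterial sugars, and Map2k6, a kinase of the p38 pathway. All but Map2k6 were also lost with the GC offset (edgeR adjusted p = 0.0627, 0.0874 and 0.0574 for Sult5a1, Cish and Alpk1). Cish averaged 12.3 ± 7.78 CPM with isotype and 37.8 ± 16.5 CPM with antibody (log2 fold change 1.61, edgeR adjusted p = 0.0436; adjusted p = 0.110 without replicate 5). Sult5a1 averaged 16.01 ± 4.67 and 50.9 ± 21.3 CPM (log2 fold change 1.67, edgeR adjusted p = 0.0365; adjusted p = 0.0880 without replicate 5), with DBI_Veh replicate 1 at 14.4 CPM inside the isotype range. For Alpk1 and Map2k6 the edgeR adjusted p moved from 0.0383 and 0.0244 to 0.110 and 0.0672. The log2 fold change without that liver stayed above 1 in all of them, at 1.48 for Cish, 1.61 for Sult5a1, 1.26 for Alpk1 and 1.32 for Map2k6.

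The corresponding falls were Cfd, Srp54b, Gas7, Dnajb9 and Cd55. Cfd encodes complement factor D, which adipocytes make in abundance. It was read with 76, 57, 6, 0 and 68 counts in the isotype livers and with 0 counts in all 5 antibody livers. Against a floor of 3 counts per library the mean was at least 15.2-fold lower with antibody (edgeR adjusted p = 0.0286; 0.0636 without replicate 5). The groups overlapped at 0, in IgG_Veh replicate 4. Other transcripts typical of fat cells had the same pattern at very low levels: Adipoq was read in 4 and Plin1 and Retn in 3 isotype livers, and none of them in any antibody liver. Fabp4, also made by endothelial cells and macrophages, was read in all 10 livers. Of the 8 adipocyte markers 2 were at 0 in all 10 livers, and the sum over the list, nearly all of it Car3, which hepatocytes also express, was 1389 to 2266 CPM with isotype and 688 to 1299 CPM with antibody. Their part in the result for Cfd was not tested. Cd55, a complement regulator, averaged 12.6 ± 5.29 CPM with isotype and 4.76 ± 2.23 CPM with antibody (log2 fold change -1.41, edgeR adjusted p = 0.0299), and Gas7 11.7 ± 1.61 and 4.19 ± 1.22 CPM (log2 fold change -1.48, edgeR adjusted p = 0.0268). Srp54b, a copy of the signal recognition particle subunit gene that shares 38.3% of its 100-base words with other genes, read 0 to 2.09 CPM with antibody against 2.18 to 9.64 CPM. Srp54b, Dnajb9 and Cd55 were lost with the GC offset (edgeR adjusted p = 0.0824, 0.117 and 0.0856).

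A few genes were called only when DBI_Veh replicate 5 was left out. Pnpla3, a lipid droplet acylhydrolase, read 2.68, 4.12, 6.64, 11.4 and 32.8 CPM with antibody against 79.2, 29.2, 11.1, 76.8 and 24.8 CPM with isotype, so that 4 antibody livers lay below 4 of the 5 isotype livers and replicate 5 lay among them (log2 fold change -2.83, edgeR adjusted p = 0.0402 without it; adjusted p = 0.114 with it). Thbd, thrombomodulin of the endothelium, read at most 0.375 CPM in 4 antibody livers and 1.74 CPM in replicate 5, against 1.06 to 3.96 CPM with isotype (log2 fold change -3.53, edgeR adjusted p = 0.0487 without it). Id2, an inhibitor of helix-loop-helix factors, read 79.7, 70.5, 76.8, 52.6 and 138 CPM with antibody and 118, 174, 152, 143 and 194 CPM with isotype (log2 fold change -1.17, edgeR adjusted p = 0.00983 without it; -0.90 with it). The falls of Calcrl, a receptor of calcitonin-related peptides, and Dtx4, a ubiquitin ligase, were added likewise (-1.14 and -1.11 on the log2 scale). On the higher side Vps13a, a lipid transfer protein, Ankrd13b and Fbxo31 joined Orm2, at 1.43, 1.06 and 1.01. With the GC offset added to the fit without that liver, Pnpla3, Thbd and Calcrl lost their call (edgeR adjusted p = 0.0579, 0.0744 and 0.0989). So did Vps13a, Ankrd13b and Fbxo31 (edgeR adjusted p = 0.0569, 0.346 and 0.186), while Id2, Dtx4 and Orm2 kept theirs.

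Lipid genes gave few calls. Of 26 genes that make fatty acids and triglycerides, none was called in edgeR, 11 had an unadjusted p of 0.05 or less, and DESeq2 and limma voom each called 1. By adjusted p alone 1 was higher and 4 lower, and the median log2 fold change was -0.47. Me1, the malic enzyme that supplies NADPH for lipogenesis, read 79.2 to 169 CPM with isotype and 49.1 to 69.4 CPM with antibody without overlap (log2 fold change -0.99 ± 0.20 SE, edgeR adjusted p = 0.00675). Elovl5, an elongase of polyunsaturated fatty acids, averaged 566 ± 52.3 and 331 ± 58.9 CPM (log2 fold change -0.78 ± 0.18 SE, edgeR adjusted p = 0.0166), and Agpat2, which makes phosphatidic acid, 193 ± 46.1 and 102 ± 25.002 CPM (log2 fold change -0.93 ± 0.22 SE, edgeR adjusted p = 0.0184). Of 12 genes of lipid droplets and lipolysis none was called in edgeR or limma voom, 6 had an unadjusted p of 0.05 or less and DESeq2 called 1. Pnpla2 of that list, the triglyceride lipase ATGL, was higher in every antibody liver, 81.9 to 122 CPM against 47.9 to 77.6 CPM (log2 fold change 0.86 ± 0.18 SE, edgeR adjusted p = 0.00833).

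Fatty acid oxidation and ketogenesis held 1 call in 24 genes tested (4.17% against 1.3% of all genes), Ehhadh, the bifunctional enzyme of peroxisomal beta oxidation. It read 269.7, 194, 213, 156 and 197 CPM with isotype and 104, 104, 108, 104 and 80.5 CPM with antibody, with 4 antibody livers at nearly 1 level and replicate 5 below them (log2 fold change -1.04 ± 0.23 SE, edgeR adjusted p = 0.0114; -0.98 and edgeR adjusted p = 0.0351 without replicate 5, and so below the fold limit). With the GC offset it was also under that limit, at -0.87. In the list, 18 were lower and 6 higher, with a median of -0.25. Fabp2, a fatty acid binding protein, averaged 42.3 ± 9.36 and 19.4 ± 5.25 CPM (log2 fold change -1.12 ± 0.29 SE, edgeR adjusted p = 0.0278) and lost its call without replicate 5 (edgeR adjusted p = 0.0789) and with the GC offset (adjusted p = 0.193). It was the single call of 8 lipid uptake genes (12.5% against 1.3% of all genes). Cholesterol synthesis genes were lower in 20 of 23, at a median of -0.41, yet none was called in edgeR, DESeq2 or limma voom and 7 had an unadjusted p of 0.05 or less. The summed level of these genes varied from 1568 to 4762 CPM among antibody livers against 4540 to 5834 CPM with isotype.

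In sterol and bile acid handling, 3 of 18 genes were called, 16.7% against 1.3%. Abcg5, a subunit of the transporter that exports sterols into bile, read 149, 137, 195, 183 and 133 CPM with isotype and 349, 336, 300, 212 and 461 CPM with antibody (log2 fold change 1.06 ± 0.22 SE, edgeR adjusted p = 0.00862). All antibody livers were higher, and without DBI_Veh replicate 5 it was at 0.90, just under the fold limit. Nr0b2, the repressor SHP induced by bile acids, fell from 93.7 ± 30.5 to 41.9 ± 15.03 CPM (log2 fold change -1.16 ± 0.27 SE, edgeR adjusted p = 0.0159), where the lowest isotype and the highest antibody liver both read 59.6 CPM. Cyp7b1, of the alternative bile acid pathway, fell from 15.5 ± 5.76 to 7.30 ± 2.35 CPM (log2 fold change -1.09, edgeR adjusted p = 0.0332) and was lost without replicate 5 (adjusted p = 0.0845). Both falls were lost with the GC offset (edgeR adjusted p = 0.106 and 0.101). Akr1d1, a reductase of bile acid synthesis, passed the adjusted p at -0.70, but not with the GC offset (-0.36, edgeR adjusted p = 0.330).

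Glucose genes gave 1 call in 11 (9.09% against 1.3%), Gys2, the liver isoform of glycogen synthase. It read 78.7, 103, 134, 67.8 and 89.9 CPM with isotype and 199, 222, 298, 163 and 247 CPM with antibody, with no overlap, and was called in each of the 25 alternatives (log2 fold change 1.25 ± 0.20 SE, edgeR adjusted p = 0.00215). None of 9 insulin and FOXO1 genes was called in edgeR, DESeq2 or limma voom, and none had an unadjusted p of 0.05 or less. On the growth hormone axis, Ghr, the receptor, passed the adjusted p at -0.51 and Cish was the single call of 14 (7.14% against 1.3%).

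Drug-metabolising enzymes gave 2 calls, both higher, although most of them lay lower. The call among conjugation enzymes was Sult5a1 (3.57% against 1.3% of all genes). Of 28 conjugation enzymes 25 were lower, with a median log2 fold change of -0.56, and 9 of the 28 did not overlap between groups, against 7.13% of all genes tested. The GC offset moved this median to -0.25. Ugt2a3, a glucuronosyltransferase, averaged 156 ± 32.1 CPM with isotype and 84.9 ± 10.9 CPM with antibody (log2 fold change -0.88 ± 0.17 SE, edgeR adjusted p = 0.00609). With the GC offset it did not pass (edgeR adjusted p = 0.0666). No gene of this list was called lower in edgeR, with 1 each in DESeq2 and limma voom. Among the 31 genes of the cytochrome P450 list, Por, the reductase that supplies all microsomal P450 enzymes with electrons, was the single call (3.23% against 1.3%). It rose from 139.7 ± 38.6 to 284 ± 41.2 CPM with no overlap (log2 fold change 1.02 ± 0.26 SE, edgeR adjusted p = 0.0264), but not with the GC offset (edgeR adjusted p = 0.0860). Cyp2j5, an epoxygenase, averaged 336 ± 71.5 and 175 ± 39.6 CPM (log2 fold change -0.94 ± 0.21 SE, edgeR adjusted p = 0.0115). All 11 genes tested of the oxidative stress and NRF2 list were lower, with a median of -0.60. None of these was called in edgeR, 7 had an unadjusted p of 0.05 or less, and DESeq2 and limma voom each called 1. Their summed level was 785 to 1017 CPM with isotype and 495 to 633 CPM with antibody.

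Chaperones of the endoplasmic reticulum, which fold secreted proteins, lay lower almost throughout. Of 17 tested, 16 were lower, with a median log2 fold change of -0.75 (-0.68 without DBI_Veh replicate 5). The summed level was 2607 to 3862 CPM with isotype and 1531 to 2275 CPM with antibody, or 1952 to 2275 CPM without replicate 5, and so did not overlap. By adjusted p alone 6 were lower and 2 without replicate 5, against 2.36% and 0.819% of all genes. Dnajb9, a cochaperone of BiP, was the single call (5.88% against 1.3%), from 21.8 ± 8.08 to 8.05 ± 2.00 CPM (log2 fold change -1.43 ± 0.39 SE, edgeR adjusted p = 0.0363; adjusted p = 0.0614 without replicate 5). Hspa5, which encodes BiP itself, read 558, 371, 300.1, 333 and 443 CPM with isotype and 269, 209, 170.5, 239 and 130.2 CPM with antibody (log2 fold change -0.98 ± 0.28 SE, edgeR adjusted p = 0.0420). Hsp90b1, or GRP94, averaged 476 ± 54.7 and 304 ± 47.5 CPM (log2 fold change -0.65 ± 0.16 SE, edgeR adjusted p = 0.0194). Pdia4, a protein disulphide isomerase, averaged 131 ± 29.4 and 69.1 ± 18.9 CPM (log2 fold change -0.92 ± 0.21 SE, edgeR adjusted p = 0.0150). Manf, a secreted stress factor, averaged 109.7 ± 24.5 and 57.7 ± 9.31 CPM (log2 fold change -0.93 ± 0.24 SE, edgeR adjusted p = 0.0248).

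Of the heat shock proteins, 11 of 12 were lower, at a median of -0.62. Hspe1, the cochaperonin of mitochondrial HSP60 and the single call (8.33% against 1.3%), fell from 147 ± 26.8 to 72.2 ± 21.7 CPM without overlap (log2 fold change -1.02 ± 0.22 SE, edgeR adjusted p = 0.00972), and stood at -0.87 without DBI_Veh replicate 5, under the fold limit, and at -0.67 with the GC offset. Hspa8, the constitutive cytosolic HSP70, averaged 1212 ± 268 and 801 ± 131 CPM (log2 fold change -0.60, edgeR adjusted p = 0.0735). In the integrated stress response list Ddit4, an inhibitor of mTORC1, was the call in 9 genes (11.1% against 1.3%), from 10.1 ± 1.71 to 4.27 ± 2.87 CPM (log2 fold change -1.25, edgeR adjusted p = 0.0317; adjusted p = 0.0821 without replicate 5).

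Few markers of other cells were called. Of the stellate cell and matrix genes 13 of 15 were lower, at a median of -0.40, and Lrat, which stores retinol as ester, was the single call (6.67% against 1.3%; log2 fold change -1.01 ± 0.28 SE, edgeR adjusted p = 0.0332; adjusted p = 0.0672 without replicate 5). Col3a1 and Dcn passed the adjusted p (log2 fold change -0.97, edgeR adjusted p = 0.0299, and log2 fold change -0.89, edgeR adjusted p = 0.0208), but not without replicate 5 (adjusted p = 0.0558 and 0.0580), and Lrat was lost with the GC offset (edgeR adjusted p = 0.122). None of the sinusoidal endothelial, cholangiocyte, blood, pancreatic acinar, muscle or hepatocyte markers was called in edgeR. At an unadjusted p of 0.05 or less stood 4 endothelial, 3 cholangiocyte and 4 hepatocyte markers and none of the others, and DESeq2 called 1 cholangiocyte marker, limma voom none of these.

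Proliferation, ribosomal protein, respiratory chain and p53 or immediate early genes held no call in edgeR. Their genes at an unadjusted p of 0.05 or less numbered 0 of 18, 5 of 25, 8 of 21 and 3 of 14. DESeq2 called 1 respiratory chain gene and 1 p53 or immediate early gene, and limma voom 1 respiratory chain gene. Median log2 fold changes were -0.10, -0.24, -0.38 and 0.86, the last with 12 of 14 higher and a summed level of 168 to 556 CPM with isotype and 321 to 1331 CPM with antibody. Both the ribosomal and the respiratory chain sums were lowest in DBI_Veh replicate 5, at 4769 and 2022 CPM. Genes of pericentral and periportal hepatocytes, the urea cycle and amino acid breakdown, complement and coagulation, and secreted hepatokines held no call in edgeR either. At an unadjusted p of 0.05 or less stood 2 of 12, 8 of 12, 9 of 17, 8 of 25 and 4 of 17 of them in that order, and the single call by another tool was 1 complement gene in limma voom. The periportal median was -0.48 and -0.23 with the GC offset. In the complement and coagulation list F7, coagulation factor VII, was higher in all antibody livers, 244 to 319 CPM against 149.9 to 194 CPM (log2 fold change 0.64 ± 0.15 SE, edgeR adjusted p = 0.0152). Kynu, an enzyme of tryptophan breakdown on the amino acid list, averaged 105 ± 17.998 and 58.2 ± 12.8 CPM (log2 fold change -0.86 ± 0.19 SE, edgeR adjusted p = 0.0117).

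The gene of the antibody's target was read next. Dbi (chr1:120041010-120048808, GRCm39) stood at 979, 968, 906, 619 and 982 CPM in IgG_Veh livers and at 648, 694, 647, 649 and 289 CPM in DBI_Veh livers. Replicate 4 was low in the isotype group and replicate 5 was low in the antibody group, and the groups overlapped through the former. Means were 891 ± 155 and 585 ± 167 CPM, a ratio of 0.657. In the fit across all genes Dbi was not called (log2 fold change -0.61 ± 0.21 SE, edgeR adjusted p = 0.0803; -0.44 and edgeR adjusted p = 0.170 without DBI_Veh replicate 5). The two-sided exact permutation test of its log2 CPM alone gave a difference of -0.65 and p = 0.0397, and a difference of -0.41 with exact permutation p = 0.0476 without that liver. Leaving out IgG_Veh replicate 1, 2, 3 or 5 instead gave exact permutation p from 0.0714 to 0.0952.

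Other genes of the ACBP system were not called in edgeR, DESeq2 or limma voom, and 3 of 9 tested, Dbi included, had an unadjusted p of 0.05 or less. Of the acyl-CoA binding domain genes, Acbd3, a Golgi protein, did not overlap between groups at 2.41 to 10.3 CPM with antibody against 10.7 to 15.2 CPM with isotype (log2 fold change -0.84, edgeR adjusted p = 0.0733). Acbd5, a peroxisomal tether, averaged 157 ± 18.3 and 124 ± 26.8 CPM (log2 fold change -0.33, edgeR adjusted p = 0.317), Acbd4 58.3 ± 6.95 and 65.8 ± 14.3 CPM (log2 fold change 0.17, edgeR adjusted p = 0.646) and Acbd6 38.4 ± 5.01 and 38.6 ± 8.92 CPM (log2 fold change 0.01, edgeR adjusted p = 0.990). The direction of Acbd4 and Acbd6 turned under some settings. Dbil5, a paralog known from testis, was read at 0 to 0.673 CPM with isotype and 0 to 2.23 CPM with antibody. The outer mitochondrial membrane partners Tspo and Vdac1 averaged 63.5 ± 15.3 and 46.6 ± 20.1 CPM and 131 ± 29.1 and 91.8 ± 33.9 CPM (log2 fold change -0.45, edgeR adjusted p = 0.324, and log2 fold change -0.52, edgeR adjusted p = 0.233).

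The same antibody contrast under CORT, DBI_CORT minus IgG_CORT, shares no liver with the comparison above and called 96 genes (0.597%), 81 (0.504%) higher and 15 (0.0933%) lower. Of the 209 genes called without CORT, 123 had the same sign under CORT, or 65 of the rises and 58 of the falls, while 59.1% of all genes tested did. The median log2 fold change under CORT was 0.06 for the called rises and -0.12 for the called falls. Called in both settings were 8 genes. Saa1, Saa2, Saa3, Kcna2 and Pde1b rose in both, Lrrc58 fell in both, and Ppard and Id3 went in opposite directions. Kcna2, Pde1b and Lrrc58 are named for this count after their values were seen. Under CORT the means of Saa1 were 48.9 ± 22.8 CPM with isotype and 925 ± 268 CPM with antibody (log2 fold change 4.24 ± 0.74 SE, edgeR adjusted p = 0.00949). For Saa2 they were 22.8 ± 13.02 and 934 ± 293 CPM (log2 fold change 5.36 ± 0.91 SE, edgeR adjusted p = 0.00871). Orm2 was called as well (log2 fold change 2.27, edgeR adjusted p = 0.0279), while Lcn2 was high in both CORT groups, 309 ± 179.8 and 301 ± 109 CPM (log2 fold change -0.04, edgeR adjusted p = 0.992).

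No clock gene was called under CORT. None of the 19 passed in edgeR, and their median log2 fold change was -0.28. Ciart averaged 3.62 ± 2.62 and 3.78 ± 2.81 CPM (log2 fold change 0.07, edgeR adjusted p = 0.987), Dbp 67.8 ± 57.4 and 45.1 ± 83.6 CPM (log2 fold change -0.59, edgeR adjusted p = 0.897) and Tef 185 ± 62.5 and 131 ± 112 CPM (log2 fold change -0.50, edgeR adjusted p = 0.702). Mt2 averaged 377 ± 65.6 and 390.1 ± 304 CPM (log2 fold change 0.05, edgeR adjusted p = 0.987). The test of the difference itself, the effect without CORT minus the effect with it, was not passed by Ciart (difference 3.17, edgeR adjusted p = 0.0752), Dbp (4.90, adjusted p = 0.163), Tef (2.61, adjusted p = 0.0570) or Arntl (-2.68, adjusted p = 0.0607), and passed by Nfil3 (-1.80, adjusted p = 0.0162). The immune, interferon and MHC lists had no call without CORT, where 1.3% of all genes were called. Under CORT 18 of their 113 genes were called higher, against 0.504% of all genes tested. Some lists lay lower in both settings. Under CORT, lower were 16 of 17 endoplasmic reticulum chaperones (median log2 fold change -0.51) and 12 of 12 heat shock proteins (-0.59). So were 24 of 28 conjugation enzymes (-0.41) and 18 of 23 cholesterol synthesis genes (-0.39). Ribosomal protein and periportal genes went the other way, with 18 of 25 and 9 of 12 higher. By GC quintile, medians under CORT ran from -0.16 to 0.18.

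The difference between the antibody effects was called for 23 genes (0.143%), 7 (0.0436%) with the higher effect without CORT and 16 (0.0996%) with the lower. Of these, 11 were among the 209, and in 22 of the 23 the effects had opposite signs. Ppard had the lowest adjusted p. Its mean fell from 44.4 ± 21.4 to 13.3 ± 2.35 CPM without CORT and rose from 9.14 ± 2.89 to 32.7 ± 11.9 CPM with CORT, each change being called (difference -3.57 ± 0.41 SE, edgeR adjusted p = 4.58e-05). Id3, a helix-loop-helix inhibitor induced by BMP signals, went from 131 ± 29.5 to 63.3 ± 4.90 CPM without CORT and from 69.6 ± 31.4 to 195 ± 68.8 CPM with it (difference -2.54 ± 0.38 SE, edgeR adjusted p = 0.00281). Its paralog Id1, of the iron and metallothionein list, fell without CORT (log2 fold change -1.18, edgeR adjusted p = 0.0257) and differed likewise (difference -2.05, edgeR adjusted p = 0.0449). Adck3, needed for coenzyme Q synthesis, fell from 619 ± 117 to 303 ± 81.1 CPM without CORT and averaged 298 ± 53.6 and 490.3 ± 74.8 CPM with it (difference -1.75 ± 0.27 SE, edgeR adjusted p = 0.00281). Clpx differed by -2.02 (adjusted p = 0.00521). In the opposite sense, Tns2, a focal adhesion protein, averaged 74.1 ± 15.9 and 148 ± 23.7 CPM without CORT and 107 ± 15.99 and 77.8 ± 14.8 CPM with it (difference 1.46 ± 0.24 SE, edgeR adjusted p = 0.00521). Gys2 (1.52, adjusted p = 0.0162), Vwce (1.79, adjusted p = 0.0202) and Slc6a9 (1.66, adjusted p = 0.0253) rose without CORT and were not called under CORT, where their fold changes were -0.26, -0.27 and -0.20 on the log2 scale. Id3 and Id1 lost their call without CORT when DBI_Veh replicate 5 was left out (edgeR adjusted p = 0.0635 and 0.0734) and with the GC offset (edgeR adjusted p = 0.0638 and 0.0588). Without DBI_Veh replicate 5 the count of called differences was 11, all among the 23, and over the 20 livers left out in turn it ran from 6, without DBI_CORT replicate 3, to 101, without DBI_CORT replicate 5.

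**Figure D5:**
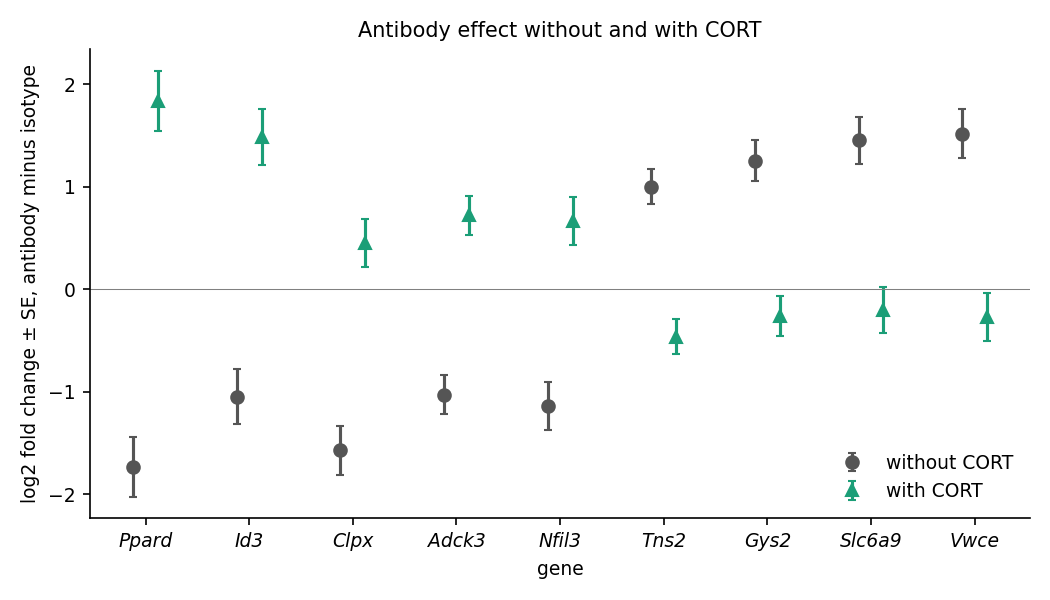
Log2 fold change of anti-ACBP minus isotype (y axis; points are edgeR estimates, bars SE, n = 5 livers per group) without CORT (circles) and with CORT (triangles) for 9 genes whose antibody effects differed between the settings. Ppard, Id3, Clpx, Adck3 and Nfil3 are below 0 without CORT and above 0 with it, and Tns2, Gys2, Slc6a9 and Vwce the reverse.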

How the data were processed

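The authors extracted liver RNA, sequenced paired reads, aligned them with HISAT2 2.2.1 and counted them per gene with HTSeq 2.0.2 in union mode, per the study's methods; these name GRCm39 whereas the submitters' processing notes name mm10, and the strand setting and annotation version are not given. The deposited values are raw counts, with rows for pairs on no feature, which stayed out of library sizes and tests. Counts of 48440 genes were normalised by TMM and tested with edgeR 4.0.16 (R 4.3.3): filterByExpr over the 4 groups, robust quasi-likelihood fit of all 20 libraries, contrasts between groups, Benjamini-Hochberg adjustment over all genes tested. A gene was called where its adjusted p was no higher than 0.05 and its log2 fold change at least 1 in size. CPM are TMM-scaled. Single values were compared by two-sided exact permutation tests. DESeq2 1.42.0, limma 3.58.1 (voom), other filters, scalings, a replicate block and leaving out each liver were alternatives, as was a GC and length offset added after seeing the data.

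Samples were grouped by their treatment labels, which call them biological replicates. Cages are not given, so the edgeR p-values measure the spread between livers within the 4 groups, CORT livers included. The permutation p-values use livers of the 2 vehicle groups alone. No 2 livers of the same vehicle group agreed within sampling noise (chi-square per degree of freedom at least 12.0). Other pairs of livers were not compared in this way. Depth was 14934926 to 20299999 counts in the 10 livers, where 3 counts correspond to 0.148 to 0.201 CPM before TMM scaling; such limits cover counting error only. The members and gene lists were chosen with earlier results of these data known. Named genes were the ACBP system, the 10 largest non-overlapping rises and falls called with and without DBI_Veh replicate 5, the 5 largest called in only 1 of these fits, up to 4 genes of lowest p per list and the 5 of lowest p of the difference with CORT, at a mean of 1 CPM or more, without predicted genes and pseudogenes. Positions and overlaps are from GENCODE on GRCm39 and promoters from RefSeq on GRCm38.p6. Some members of the lists are counted but not reported singly here. The fits were tested on simulated data.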

Additional observations from a re-analysis of the deposited data

Results flagged for a closer look

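A liver was singled out where its gap to the nearest of the other 4 in its group exceeded Dixon's 95% critical share of the group's range. Of 256 groups of 5 values tested, 23 had such a liver. About 1 in 20 would be flagged among independent, normally distributed values. The values here came from the same livers and largely from genes named by their results, so the count is no measure of an excess over chance. In DBI_Veh replicate 5 the values singled out were Dbi at 289 CPM, Thbd at 1.74 CPM, Ehhadh at 80.5 CPM, Hsp90b1 at 220 CPM and the mean correlation with other vehicle livers of 0.846. Thbd was named because it was called only without that liver. IgG_Veh replicate 4 stood apart in Dbi (619 CPM), the summed hepatocyte markers (84740 CPM) and its shares of pairs on no feature (42.3%), pairs not aligned (4.84%) and mitochondrial counts (8.96%).

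IgG_Veh replicate 1 stood apart in Clpx (275 CPM), Tubb2a (196 CPM), Adck3 (829 CPM), Agpat2 (272 CPM), Dnaja1 (163 CPM), Id1 (11.1 CPM) and the summed sinusoidal endothelial markers (508 CPM). In IgG_Veh replicate 3 the genes were Per1 (80.2 CPM) and Fbxo31 (53.4 CPM). Among antibody livers, replicate 1 had Wnk4 at 30.8 CPM, replicate 2 had summed neutrophil markers of 9.58 CPM, and replicate 4 had Ddc at 47.9 CPM and Pdia4 at 101 CPM.

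For 10 of the named genes the antibody effect differed with CORT by edgeR's test of the difference. On the log2 scale, without CORT minus with CORT, the differences were -3.57 for Ppard, -2.54 for Id3, -2.05 for Id1, -2.02 for Clpx, -1.80 for Nfil3, -1.75 for Adck3, 1.79 for Vwce, 1.66 for Slc6a9, 1.52 for Gys2 and 1.46 for Tns2.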

How the results depend on the processing

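The 209 calls became 826 with no limit on the fold change, 537 with an unadjusted p, 122 with the GC and length offset, 83 with that offset and the replicate block and 41 with it and no DBI_Veh replicate 5. Leaving out 1 liver gave 87 to 343 calls: 90, 123, 343 and 87 without IgG_Veh replicate 1, 2, 4 or 5, and 92 and 113 without DBI_Veh replicate 1 or 5. The 113 calls without DBI_Veh replicate 5 became 192 in DESeq2, 270 in limma voom, 309 with no limit on the fold change, 497 with an unadjusted p and 41 with the offset. The 96 calls under CORT became 211 in DESeq2, 57 in limma voom, 27 with only the 2 groups fitted, 154 with no limit on the fold change, 520 with an unadjusted p, 63 with the offset, 62 with the offset and block, and 52 to 191 without 1 liver. The 23 called differences became 187 in DESeq2, 35 with its size factors, 49 in limma voom, 53 with no filter, 60 with 10 counts in every liver, 41 with library sizes without the top 20 genes, 791 with an unadjusted p, and 6 to 101 without 1 liver.

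Same-numbered livers did not deviate together (5 pairs, correlations -0.0865 to 0.0153, 0 best with their own number), so the numbers are no pairing; the replicate block gave 185, 101, 90 and 20 calls in place of 209, 113, 96 and 23. The difference in Dbi ranged over -0.778 to -0.414 without 1 liver. Differences in total counts (-0.779 M to 0.562 M), mitochondrial share (-0.00395 to 1.21 points) and share on no feature (-0.278 to 0.360 points) turned sign without 1 liver. Acbd4 turned to -0.0148 with the offset and -0.0222 with offset and block. Acbd6 turned to -0.00198 with no filter, -0.00883 without the top 20 genes, -0.00353 with the block and ranged from -0.0968 to 0.104 without 1 liver.

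Of 50 called genes named, none reversed in any alternative. Still called were 30 without DBI_Veh replicate 5, 29 with the offset, 16 with both and 21 without IgG_Veh replicate 5. The counts without DBI_Veh replicate 5 are partly set by the rule that named these genes. Of 230 list medians under 5 alternatives, 8 moved by more than the spread between livers. The cause of these changes was not tested. The biological coefficient of variation was 0.481 with 5 livers a group, and 47 of the 209 calls rest on genes under 10 CPM.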
